A study of Mus musculus with 48 samples.

Results

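The HMGN family was followed through adipocyte differentiation by taking the 4 genes with the symbols Hmgn1, Hmgn2, Hmgn3 and Hmgn5, out of 55450 genes counted, in all 48 RNA-seq libraries of the series. The members were taken by symbol. Libraries came from white preadipocytes of the inguinal fat pad (iWAT) at days 0, 3, 6 and 9 of induced browning and from mouse embryonic fibroblasts (MEFs) at days 0, 4, 8 and 12, with 3 wild type (WT) and 3 double knockout (DKO) libraries at each day. WT and DKO animals had the C57BL/6 background, and DKO cells came from mice with the Hmgn1-/- and Hmgn2-/- alleles, for which the sources name no restriction to a cell type. The preadipocytes came from young adult mice and the MEFs from mid-gestation embryos at a low passage. Cultures of both genotypes were induced with insulin, dexamethasone, IBMX, T3 and rosiglitazone, for 4 days in preadipocytes and 8 days in MEFs. They were then kept in insulin and T3. Day 0 libraries thus came before induction, and the cell types changed medium at different days. The study describes its replicates as biological, while the sources used here do not tie each library to an animal or a culture, so p-values measure the spread between these libraries.

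HMGN proteins bind the nucleosome core particle without preference for a DNA sequence, and they compete with the linker histone H1 for chromatin. They are found at enhancers and promoters of active genes, and HMGN1 and HMGN2 are the abundant, widely expressed members. HMGN3 is best known from the brain, the eye and the pancreatic islet, and HMGN5 is an X-linked member with a long acidic tail.

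The members share their nucleosome-binding core, and the reference coding sequences behind a part of it can be set side by side. The longest run of amino acids common to all 4 is 8 residues, encoded by 24 bases that lie in exon 3 of each gene. These bases are printed 5′ to 3′ on the coding strand, and capitals mark bases that differ from Hmgn1.
Hmgn1: cgccgctccgcgaggctgtcggcc
Hmgn2: AgAAgAtcTgcgaggTtgtcTgcT
Hmgn3: AgAcgGtcGgcCaggTtgtcCgcG
Hmgn5: AgAAgAtcAgcCCgActgtcTgcT
The stretches lie at chr16:96127311-96127334 (Hmgn1), chr4:133966766-133966789 (Hmgn2), chr9:83114773-83114796 (Hmgn3) and chrX:109010857-109010880 (Hmgn5), all on the minus strand of mm10. Hmgn2 and Hmgn3 each differ from Hmgn1 at 8 of the 24 bases and Hmgn5 at 10, although the encoded residues are identical. The proteins have 96 (HMGN1), 90 (HMGN2), 99 (HMGN3) and 406 residues (HMGN5), so the members left intact in DKO cells carry the same core in proteins of very different length. The genes span 96120618 to 96127729 on chromosome 16 (Hmgn1), 133964738 to 133968650 on chromosome 4 (Hmgn2), 83109948 to 83146685 on chromosome 9 (Hmgn3) and 109004534 to 109013404 on chromosome X (Hmgn5).

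The libraries held 18962500 to 36006700 expected counts each, which gave each member other than Hmgn2 in DKO cells at least 188 counts in every library. Levels are given as CPM, counts relative to library size with all 48 libraries scaled together by the trimmed mean of M-values (TMM). Genes were tested with edgeR's quasi-likelihood test and called at a Benjamini-Hochberg adjusted p under 0.05. The 11 adipocyte markers (Adipoq, Plin1, Fabp4 and others) summed to 199 to 997 CPM in preadipocytes at day 0 and to 29781 to 46657 CPM at day 9. The 8 fibroblast and preadipocyte markers were detected in every group. Macrophage markers were present too, with 7 genes such as Lyz2 and Adgre1 that summed to 2857 to 8003 CPM in MEFs and to 39.8 to 11322 CPM in preadipocytes. Endothelial and epithelial markers summed to at most 49.4 CPM in any library, and skeletal muscle markers to at most 240 CPM. Xist, the RNA of the inactive X chromosome, was at 1154 to 1722 CPM in all MEF libraries, where Ddx3y of the Y chromosome was at 0. Preadipocyte libraries held at most 0.533 CPM of Xist and 103 to 220 CPM of Ddx3y, so that cell type and sex coincided while the genotypes did not differ in it. In bulk RNA, fewer cells of a type and less RNA per cell cannot be told apart.

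The targeted genes were examined first. Hmgn2, an abundant member in WT cells, was essentially absent from DKO libraries. WT preadipocytes held 744 to 4094 expected counts of Hmgn2 per library and WT MEFs 1046 to 6069. Of the 24 DKO libraries, the highest held 10 counts (preadipocytes day 3 replicate 1), and no count was found in any DKO library of preadipocytes at day 9 or of MEFs at days 0 and 12. In the 6 cell type and day combinations in which every DKO library was at or under 3 counts, Hmgn2 was at least 327-fold to at least 1569-fold lower in DKO cells, taking 3 counts per library as the floor, which covers counting error only. Hmgn2 was called lower in 8 of 8 comparisons, with adjusted p between 4.66e-13 and 0.00433 (edgeR quasi-likelihood test).

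Hmgn1 behaved differently, since its transcripts were reduced but far from absent. In preadipocytes at day 0 the WT libraries held 167, 139 and 175 CPM of Hmgn1 and the DKO libraries 93.3, 102 and 104 CPM. At day 3 the values were 164, 171 and 192 CPM (WT) against 94.4, 108 and 112 CPM (DKO). By day 6 they had come closer, at 122, 122 and 116 CPM (WT) against 96.1, 103 and 94.8 CPM (DKO). At day 9 the groups overlapped, with 86.2, 83.4 and 81.9 CPM (WT) against 80.6, 77.6 and 90.5 CPM (DKO). The DKO mean was thus 62.1%, 59.6%, 81.9% and 98.9% of the WT mean at days 0, 3, 6 and 9. Counts per gene pool all exons, so whether the remaining reads came from exons outside the deleted part was not tested. The study states that transcripts of the deleted exons were absent from RNA sequences. It also states that western blots found neither HMGN1 nor HMGN2 protein in DKO cells.

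On the log2 scale the DKO against WT difference of Hmgn1 in preadipocytes was -0.70 ± 0.11 (SE), -0.77 ± 0.093, -0.31 ± 0.070 and -0.05 ± 0.069 over the same days. Only days 3 and 6 passed the test (edgeR adjusted p = 0.0384 and 0.0195, against 0.0969 at day 0 and 0.685 at day 9). Of all genes tested, 0.218%, 0.351%, 21.6% and 2.11% were called at these days. The count behind the day 6 share, 3172 genes, was 848, 1283 and 1647 when WT replicate 3, the third DKO library or WT replicate 1 was left out, and the 310 genes of day 9 ranged from 20 without WT replicate 2 to 3290 without DKO replicate 2. The call at day 3 was lost when any 1 of the 6 libraries was left out (edgeR adjusted p 0.0786 to 0.241), and that at day 6 by leaving out WT replicate 1, WT replicate 3 or the third DKO library (0.0677 to 0.0689). The day 0 difference, in turn, was called by DESeq2 (adjusted p = 9.53e-06), without a filter on low counts (0.00850) and in 1 fit over all days (5.71e-05).

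The same order was found in MEFs. At day 0, WT MEFs held 125, 129 and 124 CPM of Hmgn1 and DKO MEFs 89.2, 62.5 and 92.8 CPM. Day 4 gave 167, 208 and 187 CPM in WT against 90.6, 75.4 and 92.7 CPM in DKO. Day 8 gave 158, 170 and 161 CPM against 109, 100 and 81.0 CPM, and day 12 gave 108, 103 and 105 CPM against 92.0, 79.5 and 88.4 CPM. All WT libraries were above all DKO libraries at each of the 4 days. The share of all genes that separated without overlap was not counted, here or for the other members below. The DKO mean was 64.6%, 46.0%, 59.2% and 81.9% of the WT mean, with log2 differences of -0.62 ± 0.16 (SE), -1.14 ± 0.13, -0.78 ± 0.11 and -0.29 ± 0.052. Days 4 and 12 passed the test (edgeR adjusted p = 0.0390 and 0.000459), whereas days 0 and 8 did not (0.434 and 0.177). Of all genes tested in MEFs, 0.102%, 0.0905%, 0.0595% and 33% were called over these days. The call at day 4 was lost without any 1 library other than WT replicate 1 (edgeR adjusted p 0.0724 to 0.294). At day 8, WT replicate 2 and DKO replicate 3 stood apart, with summed adipocyte markers of 3862 and 4535 CPM against 9613 to 17036 CPM in the other 4. WT replicate 1 of day 4 stood apart too, with 6228 CPM against 1938 and 2046 CPM. Its deviations from the group mean over genes correlated with those of day 8 replicates 1 and 3 (r = 0.52 and 0.54) and oppositely with those of day 8 replicate 2 (-0.63). Deviations in a group sum to 0 for each gene, so these values are not independent of each other. Whether these libraries carry the right day cannot be settled here, the labels were kept, and the MEF values of days 4 and 8 carry that doubt. Without the pair of day 8 libraries, a choice made after seeing the data, Hmgn1 was called at day 8 too (log2 difference -0.63, edgeR adjusted p = 0.00236), and the count of all genes called went from 9 to 1700.

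**Figure D1:**
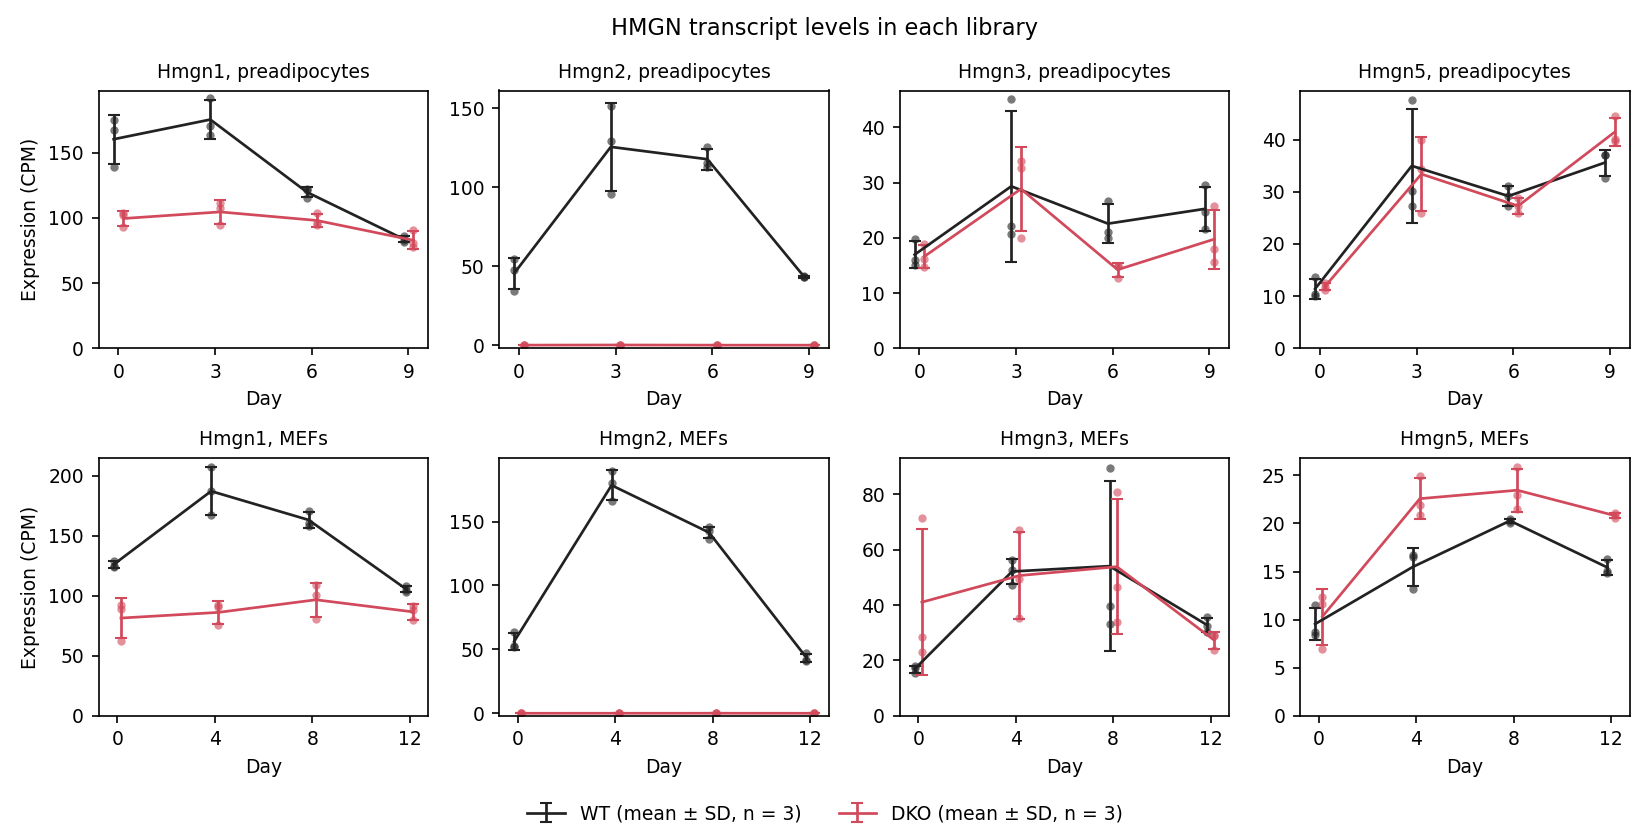
CPM of each member (columns) by day in preadipocytes (top) and MEFs (bottom), each point 1 library, lines and bars the mean ± SD of 3 libraries of WT (black) and DKO (red), with the genotypes drawn slightly side by side. WT levels of Hmgn1 fell towards the last day while DKO levels of Hmgn1 stayed between 62.5 and 112 CPM, Hmgn2 rose and fell in WT cells and stayed at or near 0 in DKO cells, and the DKO points of Hmgn5 in MEFs lay above the WT points from day 4.

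The time courses of WT cells came next. Hmgn2 had the widest swing of the targeted pair, and it moved the same way in both cell types. In WT preadipocytes it rose from 47.5, 34.6 and 54.3 CPM at day 0 to 96.0, 129 and 152 CPM at day 3, stayed at 113, 125 and 115 CPM at day 6 and fell to 43.2, 42.9 and 43.9 CPM at day 9. The steps were 1.41 ± 0.17 (log2 ± SE, edgeR adjusted p = 8.65e-05), -0.03 ± 0.16 (0.896) and -1.45 ± 0.17 (0.000188). In WT MEFs the means were 56.2 ± 6.73, 178 ± 11.8, 141 ± 4.62 and 43.5 ± 3.18 CPM (SD, n = 3) from the first day to the last. Hmgn2 in MEFs rose by 1.57 ± 0.089 on the log2 scale from day 0 to 4 (edgeR adjusted p = 1.88e-07) and changed by -1.69 ± 0.090 from day 8 to 12 (4.39e-07). The step between, -0.34 ± 0.087, did not pass (0.0583). No groups of Hmgn2 at the start overlapped with those of the following day.

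Hmgn1 moved less than Hmgn2 over the 4 days in both cell types, with ranges of the WT group means of 1.00 against 1.47 (log2) in preadipocytes and 0.81 against 2.02 in MEFs. In WT preadipocytes its step from day 0 to 3 was 0.07 ± 0.085 (log2 ± SE, edgeR adjusted p = 0.533), followed by -0.49 ± 0.085 (0.000351) and -0.52 ± 0.086 (0.00118), and the day 9 mean of 83.8 ± 2.21 CPM (SD, n = 3) compared with 160 ± 18.9 CPM at day 0. In WT MEFs Hmgn1 rose first, by 0.47 ± 0.076 from day 0 to 4 (edgeR adjusted p = 0.000342), gave -0.20 ± 0.076 from day 4 to 8 (0.126) and fell by 0.61 ± 0.076 (log2) from day 8 to 12 (0.000107). Over all genes tested, 42.1%, 64.8% and 27% were called at the 3 steps in WT preadipocytes, and 53.8%, 3.07% and 39.8% in WT MEFs. Changes of the members over time thus stood among 502 to 10482 called genes per step.

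Markers of other cell states changed over the same days. Of 16 genes of proliferating cells (Mki67, Top2a, Ccnb1 and others), 16 rose from day 0 to 3 in WT preadipocytes, 16 fell from day 3 to 6 and 15 fell from day 6 to 9, and their summed level was 527 to 824 CPM at the start, then 1206 to 1572, 320 to 382 and 162 to 179 CPM. In WT MEFs 8 of the 16 rose and 1 fell from day 0 to 4, and all 16 fell from day 8 to 12. In WT preadipocytes Hmgn1 was not called from day 0 to 3 and was called lower at both later steps. Hmgn2 was called higher from day 0 to 3, not called from day 3 to 6 and lower from day 6 to 9. In WT MEFs both were called higher from day 0 to 4 and lower from day 8 to 12. All 11 adipocyte markers rose in WT preadipocytes from day 0 to 3 and from day 3 to 6 (medians of 3.29 and 3.85 on the log2 scale), and in WT MEFs from day 0 to 4 (4.78). Macrophage markers rose for 7 of 7 in WT preadipocytes from day 3 to 6, from sums of 72.8 to 256 CPM to sums of 6882 to 11322 CPM, and fell for 5 of 7 in WT MEFs from day 0 to 4. The part of any of these cells in the steps of the members was not tested.

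Hmgn5 rose at the first step and stayed above its starting level to the last day in WT cells of both types. WT preadipocytes held 13.6, 10.1 and 10.5 CPM of Hmgn5 at day 0. Day 3 gave 30.1, 27.3 and 47.5 CPM, day 6 gave 29.2, 27.2 and 31.0 CPM, and day 9 gave 37.0, 37.0 and 32.7 CPM. All libraries of the later days were above all of day 0. The first step was 1.56 ± 0.19 (log2 ± SE, edgeR adjusted p = 8.87e-05), and it remained called without the high day 3 replicate 3 (1.28, 3.40e-05). The later steps of -0.20 ± 0.18 (edgeR adjusted p = 0.356) and 0.28 ± 0.18 (0.275) did not pass. In WT MEFs the levels were lower, at 9.55 ± 1.69, 15.5 ± 2.01, 20.3 ± 0.203 and 15.4 ± 0.798 CPM (SD, n = 3) from the first day to the last. The rise of 0.59 ± 0.13 to day 4 passed (edgeR adjusted p = 0.00221), the step of 0.39 ± 0.13 to day 8 did not (0.0929), and the fall of -0.38 ± 0.13 to day 12 passed (0.0341) but was lost when any 1 of the 6 libraries was left out (0.0563 to 0.106).

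Hmgn3 had the widest spread between replicates, relative to its mean, of the 4 members in WT preadipocytes at day 3 and WT MEFs at day 8, though not in every group. WT preadipocytes held 16.01, 15.1 and 19.7 CPM of Hmgn3 at day 0 and 20.7, 22.2 and 45.0 CPM at day 3. The step of 0.73 ± 0.27 (log2 ± SE) had an edgeR adjusted p of 0.0499, but it was 0.29 (0.200) without day 3 replicate 3, and it was lost without any 1 day 0 library (0.0589 to 0.139) too. Later WT preadipocyte levels were 26.6, 19.99 and 21.1 CPM (day 6) and 29.5, 24.7 and 21.5 CPM (day 9). The test of any change over the 4 days did not pass for Hmgn3 in WT preadipocytes (edgeR adjusted p = 0.118), while Hmgn1 (1.74e-06), Hmgn2 (4.71e-06) and Hmgn5 (3.54e-05) passed it with 84.4% of all genes.

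In WT MEFs Hmgn3 rose clearly from 17.4, 17.8 and 15.4 CPM at day 0 to 47.3, 56.4 and 52.6 CPM at day 4, a step of 1.53 ± 0.31 (log2 ± SE, edgeR adjusted p = 0.00218). At day 8 the libraries split into 39.7 and 33.1 CPM (replicates 1 and 3) and 89.3 CPM (replicate 2), and at day 12 they were back together at 30.2, 35.6 and 32.6 CPM. The high library is the one with few adipocyte markers noted above. DKO MEFs at day 8 repeated the split, with 34.0 and 46.6 CPM in replicates 1 and 2 and 80.9 CPM in replicate 3, again the library low in adipocyte markers. The same libraries were the highest of their group in summed macrophage markers. The sums were 7837 CPM against 4076 and 4100 in WT and 5941 CPM against 3075 and 4354 in DKO. Lyz2 made up most of them, at 6827 CPM in WT replicate 2 and 5246 CPM in DKO replicate 3. Adgre1 and Ptprc were also highest in these libraries. Csf1r was lowest in DKO replicate 3 (133 CPM against 150 and 173) and in the middle in WT replicate 2 (172 CPM against 169 and 183). The part of either cell type in the Hmgn3 level was not tested. Between day 4 and day 8 the WT step of Hmgn3 was 0.06 ± 0.30 (edgeR adjusted p = 0.924) with all libraries and -0.51 (0.00750) without day 8 replicate 2. It was -0.59 (5.04e-05) when WT day 4 replicate 1, the day 4 library with the most adipocyte markers, was left out as well. From day 8 to 12 the step was -0.71 ± 0.31 (0.0923), and -0.97 (0.0208) without day 8 replicate 3.

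**Figure D2:**
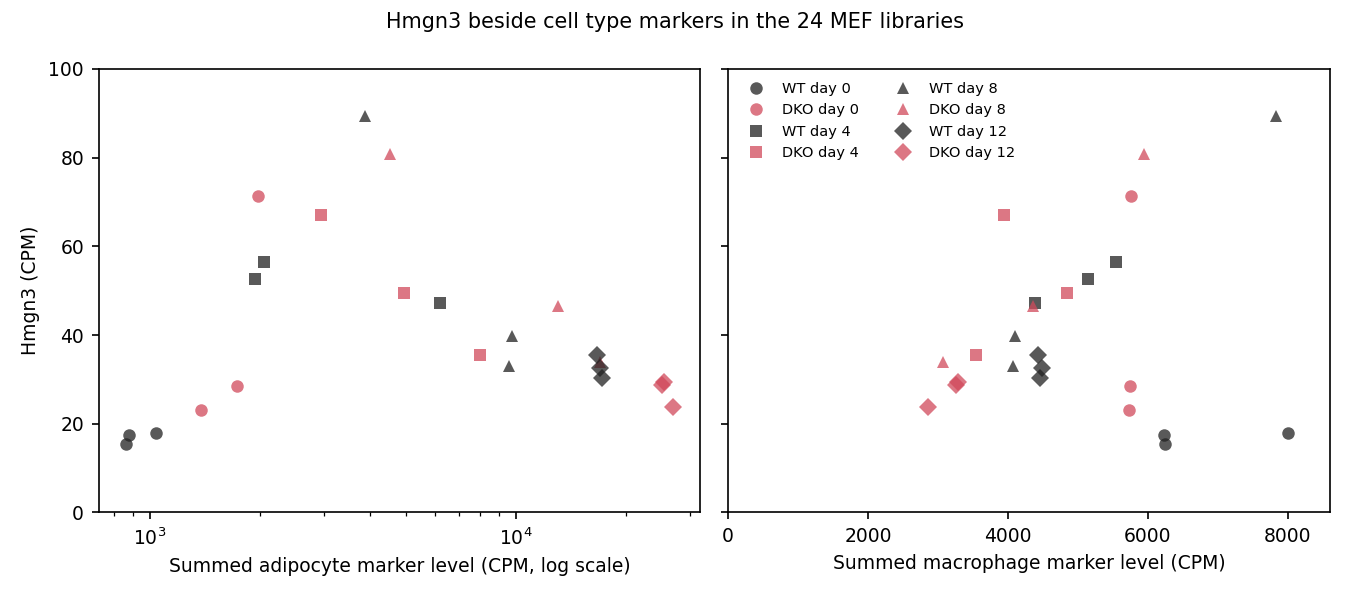
Hmgn3 level (CPM, vertical axis) in the 24 MEF libraries against the summed level of 11 adipocyte markers (left, log scale) and of 7 macrophage markers (right), each point 1 library, symbol by day and colour by genotype. The 2 day 8 libraries at 89.3 and 80.9 CPM of Hmgn3 had the lowest summed adipocyte markers of their day and genotype. Their summed macrophage markers were the highest of those groups. Hmgn3 was low in the WT libraries of day 0. Their summed macrophage markers were 6236 to 8003 CPM and their summed adipocyte markers 861 to 1037 CPM.

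In DKO cells the time course of Hmgn1 was nearly flat. Its group means ranged over 0.28 on the log2 scale in DKO preadipocytes, which passed the test of any change (edgeR adjusted p = 0.0222), against 1.00 in WT preadipocytes. In DKO MEFs the range was 0.18 and did not pass (0.687), against 0.81 in WT MEFs (2.06e-05). The DKO effect on Hmgn1 differed between days in preadipocytes (genotype by day interaction, edgeR adjusted p = 0.00723), as it did for 2.08% of all genes, and this held without each of the 24 libraries in turn (0.00266 to 0.0300). In MEFs the interaction had a p of 0.00167 but an adjusted p of 0.354, where 0.0177% of genes, or 3, were called. Hmgn3 and Hmgn5 passed the interaction test in neither cell type (edgeR adjusted p 0.546 to 0.767).

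Hmgn5 kept its rise in DKO cells, with ranges over the 4 days of 1.82 (log2) in DKO preadipocytes (edgeR adjusted p = 2.75e-06) and 1.08 in DKO MEFs (0.00159). Hmgn3 ranged over 0.97 in DKO preadipocytes (0.00928) and 0.84 in DKO MEFs (0.333). Any change over time was called for 83.8% of genes in DKO preadipocytes, 71.1% in WT MEFs and 57.6% in DKO MEFs. WT MEFs passed the test for Hmgn2 (6.07e-08), Hmgn3 (0.00433) and Hmgn5 (0.000347). Hmgn2 was too low in DKO cells to be tested.

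The study's design also allowed the question of whether the untargeted members, Hmgn3 and Hmgn5, were higher in cells without HMGN1 and HMGN2. Hmgn5 was called higher in 1 of 8 comparisons and Hmgn3 in none, while Hmgn3 was called lower in 2. All of these calls fell at day 6 of preadipocytes or day 12 of MEFs. Of all genes tested, 21.6% and 33% were called there, against 0.0595% to 2.11% in the other comparisons of the genotypes.

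For Hmgn5, the clearest difference was found in MEFs at day 12. WT libraries held 14.8, 16.3 and 15.1 CPM and DKO libraries 20.5, 20.8 and 21.1 CPM, without overlap. The DKO mean was 135% of the WT mean, a log2 difference of 0.43 (95% interval 0.27 to 0.59, edgeR adjusted p = 0.000372). At this day 17.3% of all genes were called higher and 15.8% lower in DKO cells, so Hmgn5 was 1 of 2649 genes called higher, and it did not reach a fold change of 1.5. The call was lost in a fit over all days of MEFs (0.45, adjusted p = 0.125), in which 453 rather than 5062 genes were called. At day 4 the DKO libraries were again all above WT, at 21.9, 24.9 and 20.9 CPM against 16.7, 16.5 and 13.1 CPM (log2 difference 0.53, 95% interval 0.22 to 0.83), but the adjusted p was 0.504 at an unadjusted p of 0.00447. Day 8 gave 25.9, 23.0 and 21.5 CPM in DKO against 20.5, 20.3 and 20.1 CPM in WT (0.18, -0.04 to 0.40, edgeR adjusted p = 0.644). At day 0 the groups overlapped, with 6.99 to 12.4 CPM in DKO and 8.44 to 11.5 CPM in WT (0.12, -0.48 to 0.72).

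In preadipocytes the genotypes could not be separated for Hmgn5 at any day by the test. The first 3 days gave log2 differences of 0.04 (95% interval -0.30 to 0.37), -0.09 (-0.69 to 0.51) and -0.11 (-0.32 to 0.09). At day 9 the DKO libraries of 39.7, 44.5 and 40.2 CPM were all above the WT libraries of 37.0, 37.0 and 32.7 CPM, with a log2 difference of 0.19 (-0.01 to 0.39, edgeR adjusted p = 0.207). At all 4 days the upper bounds allow at most a log2 rise of 0.51.

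For Hmgn3, DKO preadipocytes were lower at day 6. The WT libraries held 26.6, 19.99 and 21.1 CPM and the DKO libraries 14.9, 15.0 and 12.8 CPM, so all DKO values lay below all WT values. The log2 difference was -0.69 ± 0.13 (SE), with a 95% interval of -0.99 to -0.38 (edgeR adjusted p = 0.0112, and 0.0115 to 0.0476 without each library in turn), while a fit over all days gave -0.65 (0.0909). At this day 11.6% of genes were called higher and 9.96% lower in DKO cells. With scaling by library size only, the median of all genes at day 6 shifted to -0.11 (log2) and the split became 1170 higher and 2034 lower, against 1708 and 1464, with Hmgn3 still called lower. Day 9 gave 18.0, 25.7 and 15.6 CPM in DKO against 29.5, 24.7 and 21.5 CPM in WT (log2 difference -0.38, -0.89 to 0.12, edgeR adjusted p = 0.298), but it was called without DKO replicate 2 (-0.63, 0.0248). At days 0 and 3 the groups overlapped, with log2 differences of -0.04 (-0.40 to 0.32) and -0.05 (-0.90 to 0.80).

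Cell type markers differed between the genotypes at day 6 of preadipocytes as well. Macrophage markers summed to 6882, 10841 and 11322 CPM in WT and 5315, 2290 and 3765 CPM in DKO libraries, with 1 of 7 called lower. Proliferation markers were called lower for 13 of 16 genes, and adipocyte and brown adipocyte markers were called higher for 7 of 11 and 8 of 10. Of 7 preadipocyte and fibroblast markers tested, 1 was called higher and 2 lower, and none of the endothelial, epithelial, muscle or sex-linked markers was called. Their part in the lower Hmgn3 was not tested.

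In MEFs, Hmgn3 at day 12 was 30.2, 35.6 and 32.6 CPM in WT and 29.3, 23.8 and 28.7 CPM in DKO, a log2 difference of -0.27 ± 0.084 (SE, 95% interval -0.45 to -0.09, edgeR adjusted p = 0.0244). The groups did not overlap, but the lowest WT and the highest DKO library were close together, and the call was lost without WT replicate 2 (0.142) or WT replicate 3 (0.0750). At the same day all 7 macrophage markers were called lower (summed 4437 to 4489 CPM in WT and 2857 to 3281 CPM in DKO) and all 11 adipocyte markers higher in DKO MEFs, and 11 of 16 proliferation markers were called lower. Brown adipocyte markers were called higher for 7 and lower for 2 of 10, preadipocyte and fibroblast markers higher for 1 and lower for 4 of 8, epithelial markers higher for 3 of 4, muscle markers higher for 1 of 3 and endothelial markers lower for 2 of 4 tested. The part of these cells in the result was not tested. Scaling by library size only moved the split of all genes at this day from 2649 higher and 2413 lower to 2088 and 3342, with no change in the calls of Hmgn1, Hmgn3 or Hmgn5.

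At day 0 in MEFs the DKO values of Hmgn3 were 23.2, 71.4 and 28.5 CPM against 17.4, 17.8 and 15.4 CPM in WT. All 3 DKO libraries were above WT, and 1 of them, replicate 2, was far above. The log2 difference of 1.28 (95% interval 0.28 to 2.29) did not pass (edgeR adjusted p = 0.524, unadjusted p = 0.0198), and it was 0.64 (0.210) without DKO replicate 2. That library also had the lowest summed proliferation markers of its day, at 296 CPM. The other DKO libraries held 356 and 617 CPM and the WT libraries 659 to 740 CPM. Its summed adipocyte markers were the highest of the day, at 1971 CPM, against 1379 and 1726 CPM (DKO) and 861 to 1037 CPM (WT). Of the macrophage markers, Adgre1 (168 CPM), Csf1r (166 CPM) and Ptprc (35.1 CPM) were lowest in it. Lyz2, at 5092 CPM, was its highest among the DKO libraries of day 0. The part of these cells in the Hmgn3 level was not tested. At days 4 and 8 the differences of Hmgn3 were -0.06 (-0.59 to 0.46) and -0.03 (-1.19 to 1.14), so that at day 8 neither a doubling nor a halving was detectable at this spread.

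**Figure D3:**
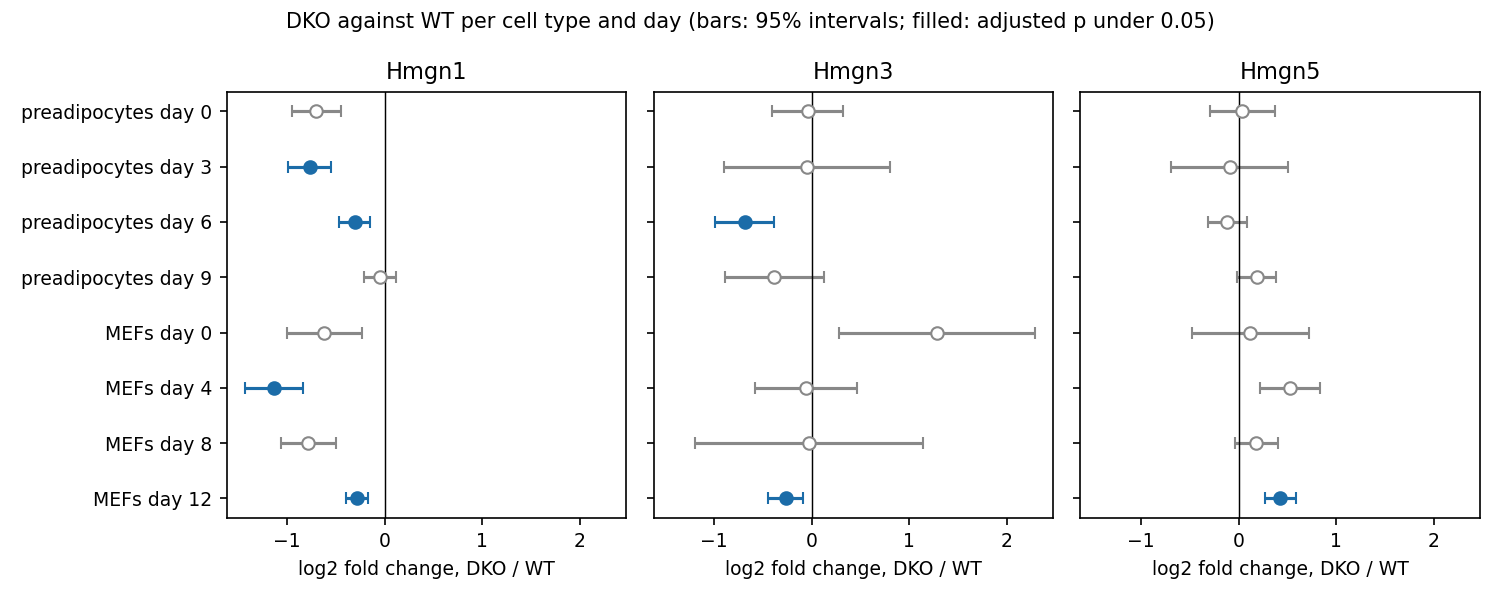
Log2 fold changes of DKO against WT for Hmgn1, Hmgn3 and Hmgn5 at each day of preadipocytes and MEFs (rows), points with 95% intervals from edgeR, filled where the adjusted p over all genes is under 0.05. Hmgn1 lay below 0 in all 8 rows, Hmgn3 was called below 0 at day 6 of preadipocytes and day 12 of MEFs, and Hmgn5 was called above 0 at day 12 of MEFs, at 0.43. Hmgn2 is left out because DKO libraries were at or near 0.

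Levels of different members can be set against each other only per length. RPKM, CPM per kilobase of the union of a gene's exons, put Hmgn1 first in both WT cell types at day 0, with 62.6% of the summed RPKM of the 4 members in preadipocytes and 54.8% in MEFs. Hmgn2 took 18.5% and 25.6%, Hmgn3 11.4% and 12.6%, and Hmgn5 7.44% and 6.92%. By the last day the family was more even, at 36.1%, 19.7%, 18.7% and 25.5% of Hmgn1, Hmgn2, Hmgn3 and Hmgn5 in WT preadipocytes and 45.2%, 19.6%, 24.2% and 10.99% in WT MEFs. With the length of the longest transcript in place of the exon union, Hmgn1 stayed first in all 4 of these groups (40.6% to 65.4%), while Hmgn5 in WT preadipocytes at day 9 went from second place to 19.3%, below Hmgn2 at 21.1%. The lengths of the genes differed, at 3221 bases for Hmgn1, 3060 for Hmgn2, 1869 for Hmgn3 and 1934 for Hmgn5.

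The summed RPKM of the family peaked in WT cells at the first day sampled after induction. In preadipocytes it was 129 ± 25.5 (SD, n = 3) on day 3 against 79.6 ± 10.5 at day 0 and 72.1 ± 3.81 at day 9. WT MEFs went from 71.5 ± 3.38 at day 0 to 152 ± 12.5 at day 4 and 72.5 ± 1.04 at day 12. DKO sums were lower at every day, at 45.9 ± 2.59, 65.2 ± 10.3, 52.2 ± 1.19 and 57.7 ± 2.88 in preadipocytes and 52.6 ± 10.4, 65.5 ± 6.81, 71.0 ± 7.58 and 52.3 ± 3.57 in MEFs. DKO and WT libraries did not overlap in this sum at any day. The sum includes both targeted genes, and Hmgn2 alone made up 18.5% to 38.3% of it in WT cells. A lower DKO sum was thus set by the knockout, and it is no result about the untargeted members. The sum counts what was left of the Hmgn1 transcript, which made up 41.4% to 67.3% of it in DKO cells, and it is given as a description with no test.

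**Figure D4:**
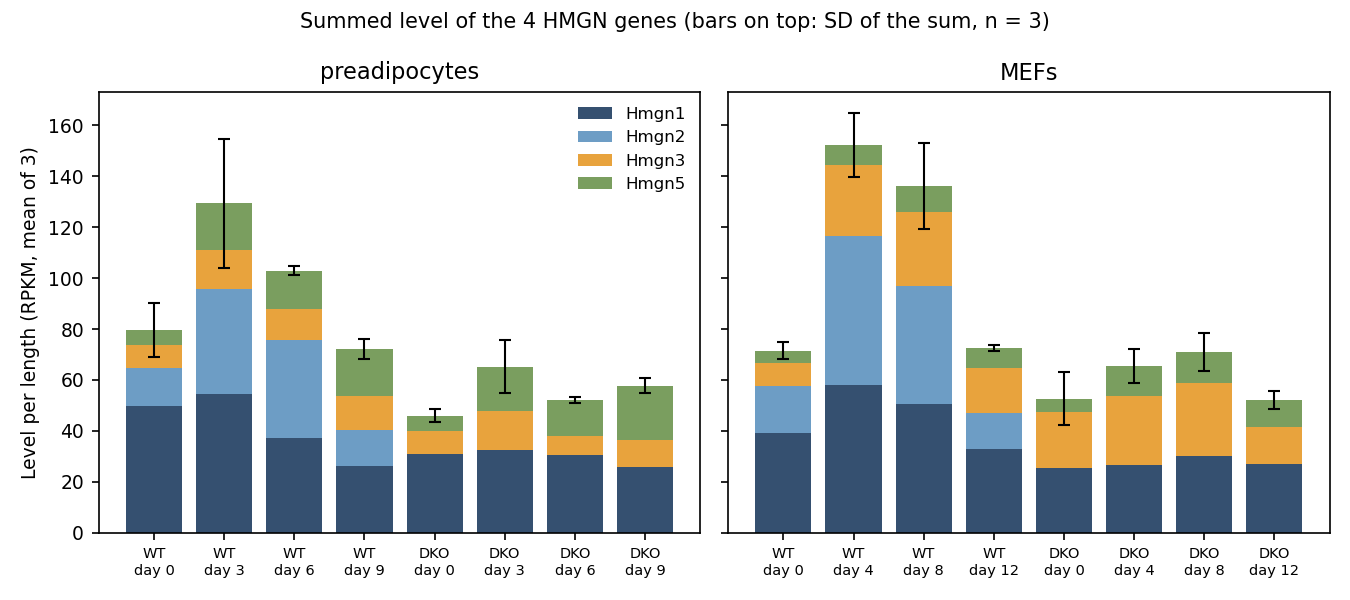
Stacked mean RPKM of the 4 members in each group of 3 libraries, preadipocytes left and MEFs right, with the SD of the sum as error bar. WT cells peaked at 129 (day 3) and 152 (day 4), and DKO sums stayed between 45.9 and 71.0 with Hmgn2 missing.

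The cell types were compared at day 0 in WT cells, where Hmgn1 was 0.26 ± 0.090 (log2 ± SE) higher in preadipocytes than in MEFs (edgeR adjusted p = 0.0354), as 61.4% of all genes differed. This call was lost without any 1 library other than preadipocyte replicate 2 (0.0653 to 0.113). Hmgn2 (-0.39, edgeR adjusted p = 0.0849), Hmgn3 (-0.08, 0.585) and Hmgn5 (0.17, 0.426) were not called, and Hmgn2 was called lower in preadipocytes without preadipocyte replicate 3 (-0.52, 0.0256). Cell type, sex and experiment cannot be told apart here, which matters for the X-linked Hmgn5. The DKO effect at day 0 differed between the cell types for none of Hmgn1, Hmgn3 and Hmgn5 by edgeR (adjusted p 0.660 to 0.965, 1 of the 3 with an unadjusted p under 0.05, Hmgn3 at 0.0210), while 0.0844% of all genes were called.

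Sequences nearly identical to the members bear on their counts. A search of all annotated transcripts found 32 other genes with at least 90% identity over at least 200 bases, 25 of them matching Hmgn2, 5 matching Hmgn1, 2 matching Hmgn5 and none matching Hmgn3. The largest, Gm10282, is annotated as protein coding at chr8:72304110-72305260 and matches Hmgn2 with 99.3% identity over 1151 bases. It had 40.7 to 329 counts in WT preadipocytes and 35.3 to 346 in WT MEFs. DKO preadipocytes held 0 counts of it and DKO MEFs at most 1. The processed pseudogene Gm10182 (chr9:22321105-22321377) had up to 105 and 156 counts in WT preadipocytes and MEFs and 0 in DKO cells of both types. Both carry the 24 bases printed for Hmgn2 without a difference, as do Gm7931 and Gm10357, which had up to 11.4 and 16.2 counts. Copies took 5.69% to 13.8% of the reads of Hmgn2 and its copies in WT libraries, so the reads of Hmgn2 are uncertain by that share. Whether the reads given to the copies came from Hmgn2 was not tested. For Hmgn1 (Gm7862, Gm8666) and Hmgn5 (Gm11914) the shares were at most 0.719% and 4.44%. Adding the counts of the copies to each member changed no call of DKO against WT.

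Genes whose WT time course was most like that of each member were ranked by the smaller of their Pearson correlations across the 12 WT libraries of preadipocytes and the 12 of MEFs, which share the days and so cannot count as independent points. For Hmgn1 these were Rcc1, the exchange factor of the Ran GTPase (0.97 in preadipocytes and 0.99 in MEFs), Smarcc1, a subunit of the BAF remodelling complex (0.97, 0.97), Chst2, Polq and Kif18b (0.96 to 0.98). For Hmgn2 they were Tmed4, Zfp866, Ptpn2, Atr, a kinase of the DNA damage checkpoint, and Chtop (0.94 to 0.98). Hmgn3 was followed most closely by Paics, an enzyme of purine synthesis (0.89, 0.92), Phip (0.88, 0.96), Zfp825, Cebpz and Foxo3. Phip lies 134432 bases from Hmgn3 on chromosome 9, at 82866159 to 82975516. Hmgn5 was matched by Angpt1, a ligand of the endothelial TIE2 receptor (0.95, 0.92), Tent5c, Pdp1, a phosphatase that activates pyruvate dehydrogenase (0.92, 0.91), Ism1 and Gm10222. Among the members, Hmgn1 and Hmgn2 had a correlation of 0.97 in MEFs but 0.45 in preadipocytes, and Hmgn3 and Hmgn5 had 0.77 in both cell types.

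The related chromatin proteins showed changes in DKO cells mainly at the days at which many genes were called. Of the 5 HMGA and HMGB genes, 2 were called higher and 2 lower in DKO preadipocytes at day 6, namely Hmgb3 (0.63 on the log2 scale) and Hmgb1 (0.28), both HMG-box proteins, against Hmgb2 (-0.61) and Hmga2 (-1.42). The same 4 genes were called in the same directions in MEFs at day 12, at 0.38, 0.31, -0.32 and -0.26. Of all genes tested, 21.6% and 33% were called in these comparisons. Hmgb1 was also called at day 9 of preadipocytes (0.51, edgeR adjusted p = 0.0433), where 2.11% of all genes were called. The median of the list at that day was -0.51, against -0.0018 over all genes. The medians of the list at day 6 of preadipocytes, 0.07, and at day 12 of MEFs, -0.01, compared with -0.01 and 0.00 over all genes.

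Among 6 linker histone genes tested of 7, H1f0, the H1 variant of resting and differentiated cells, and Hist1h1c exceeded their WT level in DKO preadipocytes at day 6 (0.44 and 0.50 on the log2 scale) and in DKO MEFs at day 12 (0.17 and 0.11), all 4 called, with list medians of 0.38 and 0.28. Of all genes tested, 11.6% and 17.3% were called higher in these comparisons. Of 8 genes linked to HMGN proteins, Cdh2, which encodes N-cadherin, was called lower at both (-0.69 among 5 tested, and -0.64 among 6 tested), and Fos was called higher at day 12 of MEFs (1.31). In WT cells over time, Hmga2 fell by 3.54 on the log2 scale in preadipocytes from day 3 to 6 and Hmgb2 fell by 1.47, with 4 of 5 HMGA and HMGB genes called lower and 1, Hmgb3, higher (1.47). From day 8 to 12 in WT MEFs 4 of 5 were called lower, from -0.33 (Hmgb1) to -1.89 (Hmgb2). In no comparison of the genotypes at days 0 and 3 of preadipocytes or days 0, 4 and 8 of MEFs was any gene of these 3 lists called. Only 0.0595% to 0.351% of all genes tested were called there.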

How the data were processed

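RNA-seq was measured in 48 mouse libraries, 24 of preadipocytes and 24 of MEFs, in 16 groups of 3. The submitters' processing notes name bcl2fastq 2.17, cutadapt 1.18, STAR 2.7.0f, RSEM 1.3.0 and the build mm10. With RSEM, a read matching more than 1 gene is apportioned among those genes. The labels name polyA RNA, while the methods name a stranded total RNA kit. The authors deposited expected counts without normalization, in 1 table per cell type. Per library, 5.49% to 7.9% of values held a fraction, and all were rounded to whole numbers before testing. The genes' identifiers matched GENCODE M21 (mm10).

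Counts were filtered with filterByExpr, scaled by TMM and fitted with edgeR 4.0.16 (R 4.3.3), robust quasi-likelihood, per cell type and day for DKO against WT, per cell type and genotype for the time courses, and over 24 libraries for the genotype by day interaction. P-values were adjusted over all tested genes, and intervals use the t distribution. Alternatives were DESeq2 1.42.0, limma 3.58.1 (voom, quantile), library size scaling, no filter, a fold change of 1.5, a fit over all days, the replicate number as a block, leaving out each library, and counts of copies found with blastn 2.17.0. Tests were first tested on simulated data. Named genes were the members, their copies with over 10 counts in a library, the 5 genes most like each member (log2 of CPM + 0.5, mean of at least 5 CPM), and up to 4 called genes per list. The lists were HMGA and HMGB, linker histones, genes linked to HMGN proteins, and markers of proliferating cells, adipocytes, brown adipocytes, preadipocytes and fibroblasts, macrophages, endothelium, epithelium, skeletal muscle and sex. The members and the lists were chosen with earlier results of these data known.

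Whether replicate numbers pair libraries was checked by correlating deviations from group means. All 3 pairs exceeded 0.1 between days 6 and 9 of WT preadipocytes (0.120 to 0.435), where unlike numbers reached 0.160. They did so too between days 0 and 3 (0.393 to 0.554) and days 6 and 9 (0.356 to 0.442) of DKO preadipocytes. In no comparison of WT with DKO did all 3 exceed it. Between WT and DKO preadipocytes, 2 of the 3 did at day 0 and at day 3, where unlike numbers reached 0.401 and 0.336. The block changed no call of a member in the step from day 6 to 9 of WT preadipocytes, in the test of any change in DKO preadipocytes or in genotype by day.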

Additional observations from a re-analysis of the deposited data

Results flagged for a closer look

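The DKO effect on Hmgn1 differed between the days of preadipocyte differentiation by a test of the difference itself (genotype by day interaction over 24 libraries, edgeR adjusted p = 0.00723). The log2 difference between DKO and WT was -0.70, -0.77, -0.31 and -0.05 over the 4 days in order. The WT mean went from 160 to 83.8 CPM and the DKO mean from 99.6 to 82.9 CPM between days 0 and 9. In both genotypes the summed adipocyte markers were higher at day 9 than at day 0, and the summed proliferation markers were higher at day 3 and lower at days 6 and 9 than at day 0. Their part in the difference was not tested.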

How the results depend on the processing

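Of 959 alternative values over 99 results, 874 kept the direction and the side of the threshold of the reported value or moved by less than 1 SD. These include all 28 of any change over time, all 156 of genotype by day and all 3 of genotype by cell type. For DKO against WT 407 of 444 did so, for the WT time courses 246 of 276 and for the comparison of cell types 28 of 36. The cause of the changes listed here was not tested.

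For Hmgn1 in DKO against WT, preadipocytes at day 0 were called with DESeq2 (-0.70), without a filter (-0.68) and in 1 fit over all days (-0.70). The latter also called Hmgn1 in MEFs at day 0 (-0.62) and day 8 (-0.76), as DESeq2 did at day 8 (-0.78), and it lost the calls in MEFs at day 12 of Hmgn1 (-0.26), Hmgn3 (-0.24) and Hmgn5 (0.45) and that of Hmgn3 in preadipocytes at day 6 (-0.65). Requiring a fold change of 1.5 removed Hmgn1 at day 6 (-0.31) and Hmgn1 (-0.29), Hmgn3 (-0.27) and Hmgn5 (0.43) at day 12. Hmgn1 in MEFs at day 4 was lost with library size scaling (-1.15) and limma-voom (-1.14). At day 8 of MEFs it was called without the pair of libraries low in adipocyte markers (-0.63, added after seeing the data).

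The replicate block lost the call of Hmgn1 in MEFs at day 4 (-1.14), of Hmgn2 in MEFs at days 0 and 8 (adjusted p = 0.106 and 0.0971) and of the Hmgn3 step to day 3 in WT preadipocytes (0.71), where the libraries shared only a number. It changed no other call of a member.

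The Hmgn3 step to day 3 was also lost without a filter (0.80). From day 4 to 8 in WT MEFs, Hmgn1 (-0.35) and Hmgn2 (-0.48) were called with library size scaling, and Hmgn2 (-0.34) and Hmgn5 (0.39) with DESeq2. Without the 2 WT libraries that stood apart, added after seeing the data, Hmgn1 (-0.31), Hmgn2 (-0.36) and Hmgn5 (0.45) were called and Hmgn3 reversed to -0.59. From day 8 to 12, DESeq2 called Hmgn3 (-0.69), while Hmgn5 was lost without a filter (-0.31) and in 1 fit over all libraries (-0.31). Between cell types, library size scaling lost Hmgn1 (0.15) and called Hmgn2 (-0.50).

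Leaving out each library changed a call of these results. Hmgn1 in DKO against WT ranged from -0.81 to -0.70 (preadipocytes day 3), -0.33 to -0.29 (day 6) and -1.22 to -1.04 (MEFs day 4), and Hmgn3 from -0.63 to -0.23 (preadipocytes day 9) and -0.33 to -0.18 (MEFs day 12). Hmgn3 ranged from 0.29 to 0.93 (WT preadipocytes, day 0 to 3), from -0.51 to 0.32 (WT MEFs, day 4 to 8) and from -0.97 to -0.062 (day 8 to 12). Over day 4 to 8 in WT MEFs, Hmgn1 ranged from -0.27 to -0.11, Hmgn2 from -0.38 to -0.29 and Hmgn5 from 0.29 to 0.45, and over day 8 to 12 Hmgn5 from -0.42 to -0.31. Between cell types Hmgn1 ranged from 0.21 to 0.36 and Hmgn2 from -0.52 to -0.22.

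With the length of the longest transcript, the shares of Hmgn1 became 65.4%, 40.6%, 57.4% and 48.5% (WT preadipocytes days 0 and 9, WT MEFs days 0 and 12), those of Hmgn5 5.25%, 19.3%, 4.89% and 7.95%, that of Hmgn2 21.1% (preadipocytes day 9) and that of Hmgn3 11.99% (MEFs day 0).

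Counts of all genes called in DKO against WT moved more than those of the members. Preadipocytes had 33, 53, 3172 and 310 called genes and DESeq2 gave 197, 572 and 1807 at days 0, 3 and 9. MEFs had 16, 14, 9 and 5062, with 207, 111 and 162 by DESeq2 at days 0, 4 and 8 and 453 at day 12 in 1 fit over all days. The block gave 8, 369 and 58 in preadipocytes at days 0, 3 and 9 and 3, 5 and 2 in MEFs at days 0, 4 and 8, and no filter gave 71, 183, 1091, 44, 33 and 25 at the same 6. The fit over all days gave 116, 589, 1457, 196, 79 and 86 there, library size scaling gave 552 in preadipocytes at day 9 and limma-voom 14 in MEFs at day 8. Leaving out 1 library gave 11 to 26, 13 to 28, 848 to 2934 and 20 to 3290 in preadipocytes in order of day, and 5 to 585 (DKO replicate 1), 5 to 19, 5 to 6 and 3844 to 5434 in MEFs. The precision for Hmgn3 in MEFs was limited by the replicates, with SEs of 0.42 and 0.48 (log2) at days 0 and 8.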
